A study of Mus musculus with 2 samples.

Results

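The clusters described here are the 3635 places where reads of the first block of lines in the anti-Rbfox1 file gathered, of 10137 such places in that library. The chromosome order in the file starts again 10 times, which divides its lines into 11 blocks, and the first block was taken as the lines before the first restart, covering chromosomes 1 to 19 and X. It held 10007 of 64820 reads (15.4%) and 35.9% of the clusters. The first block of the anti-Flag file, cut by the same rule, served as its control and held 305 of 569 reads (53.6%) in 130 of 233 clusters. The meaning of the blocks was not stated in the labels or headers. A cluster is a group of reads on 1 strand whose crosslink positions lie within 20 nt of the next, joined within a block.

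The neurons of both libraries were taken from mouse forebrain and cultured to 14 days in vitro, then crosslinked on ice with 254 nm ultraviolet light at 500 mJ/cm2 and opened briefly with Triton X-100 to release the cytoplasmic fraction. From that fraction RNA was precipitated with anti-Rbfox1 antibodies in 1 library and with anti-Flag antibodies, as the control, in the other. No genotype, strain or transgene is named in the labels. The identity of the cells could not be set against marker genes, because the files hold positions and no gene names.

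Rbfox1 belongs to a family of RNA-binding proteins of neurons that recognise the sequence UGCAUG. In the nucleus these proteins bind introns and regulate which exons are joined, and forms of Rbfox1 found in the cytoplasm bind the 3′ untranslated regions of messenger RNAs. In iCLIP, individual-nucleotide crosslinking and immunoprecipitation, reverse transcription tends to stop at the base to which the protein was joined, so the position just upstream of a read marks the contact. All positions are those of the mm9 build. Without an annotation of that build, no gene, transcript region or sequence was assigned to a cluster.

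The first question was how deep these clusters were. Most held the smallest number of reads found in the block, with 2802 of 3635 at 2 reads (77.1%, exact 95% interval 75.7 to 78.4). A further 441 held 3 reads and 172 held 4. Clusters of 5 to 9 reads numbered 154, clusters of 10 to 19 reads 46 and clusters of 20 or more reads 20. The mean was 2.75 reads per cluster. The 66 clusters of 10 reads or more made up 1.82% of the clusters and held 14.6% of the reads, while the clusters of 2 held 56.0%. In the other blocks of the same library 2155 of 6502 clusters held 2 reads (33.1%, 32.0 to 34.3), and the 18.2% with 10 reads or more held 65.0% of the reads. The share of clusters of 2 was thus 43.9 percentage points higher in the first block, by a two-sided Fisher's exact test whose p was too small for the computation to represent. Without the fourth block, which holds most of the deep clusters, the difference was 19.2 points (Fisher's exact p = 2.43e-42), and with a joining distance of 10 nt it was 26.7 points. Keeping 1 read per leftmost and per rightmost base in every block left 2435 clusters of the first block and 5886 of the others. Among the clusters left, the difference was 39.7 points (81.9% against 42.2%, Fisher's exact p = 4.26e-256). It was not seen against the third block, a smaller block of 400 clusters in which, as here, no reads share a leftmost base and strand. There 76.2% of the clusters held 2 reads (71.8 to 80.3; Fisher's exact p = 0.707). Clusters of 1 transcript are not independent and there was 1 library per antibody, so these tests compare the clusters of these libraries and have no replicate check. Intervals cover counting error only, since reads of an amplified library are not independent molecules.

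The control partner was also made up mostly of clusters of 2 reads. Of its 130 clusters 106 held 2 reads (81.5%, 73.8 to 87.8), 16 held 3, 3 held 4 and 5 held 5 to 9. The difference from the anti-Rbfox1 clusters, -4.45 points, did not pass the test (two-sided Fisher's exact p = 0.287). With a joining distance of 10 nt, which splits wide pairs and leaves single reads as clusters, 52.4% of anti-Rbfox1 and 75.5% of control clusters held 2 reads (Fisher's exact p = 5.33e-08). No control cluster of the block reached 10 reads, and 0 of 130 allows a share of up to 2.31%, which is above the 1.82% seen with anti-Rbfox1. A lack of deep clusters in the control was therefore not detectable at this depth.

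**Figure D1:**
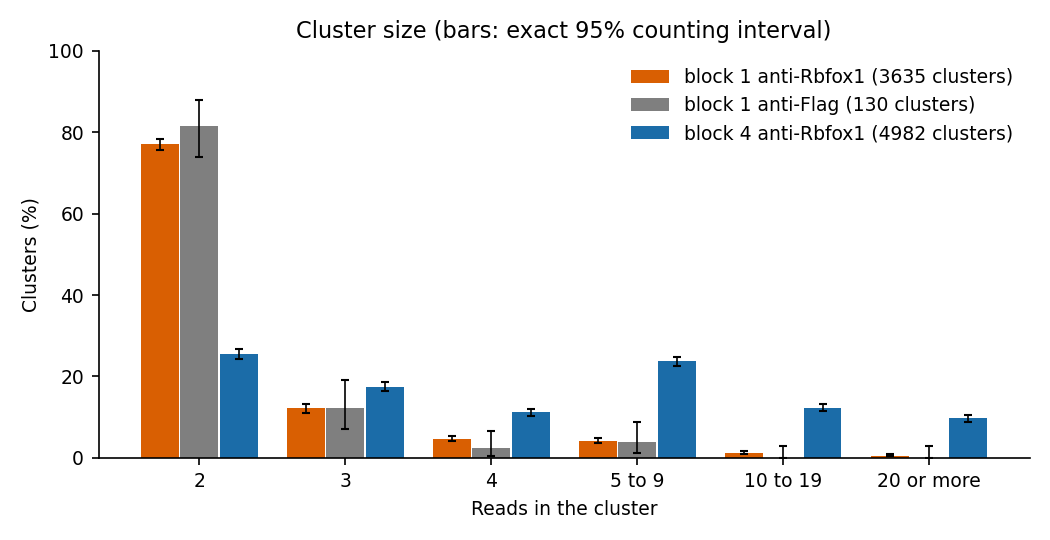
Share of clusters (%, vertical axis) by the number of reads they hold, for the first block of both libraries and the fourth block of the anti-Rbfox1 library, with exact 95% counting intervals. Clusters of 2 reads make up 77.1% and 81.5% in the first blocks and 25.6% in the fourth block.

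The clusters were narrow. Their outer bases spanned a median of 37 nt, with an interquartile range of 30 to 46 nt, and the first and last crosslink of a cluster lay a median of 5 nt apart. The control clusters spanned a median of 29 nt, with crosslinks a median of 1 nt apart. Clusters of the fourth block spanned 47 nt, with crosslinks 13 nt apart, and held more reads. Reads of the first block had a median length of 28 nt in both libraries. At the joining distance itself, 869 gaps between neighbouring anti-Rbfox1 positions measured 11 to 20 nt and 40 measured 21 to 30 nt. Gaps of exactly 20 nt occurred 13 times and gaps of 21 nt 2 times. The deposited positions thus thin out beyond the distance used here, and few clusters were near being joined to another. No cluster of the block held 1 read, so every deposited read had another within 20 nt and 2 reads was the smallest size. How reads were selected for the file was not stated, so the drop in gaps is not a check on the distance.

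The deepest cluster of the block was chr2:28069703-28069945, on the plus strand. It held 103 anti-Rbfox1 reads, 1.03% of the block (0.841 to 1.25), at 103 crosslink positions with 63 different 3′ ends, and 0 control reads. At an equal share of both blocks 3.14 control reads would fall there. The 0 of 305 control reads allow up to 0.984% of the control block, below 1.03% but within the interval of the anti-Rbfox1 share. The cluster was also picked for its anti-Rbfox1 reads, so no lower share in the control is read from it. This cluster stood alone, with no other cluster of the block within 1000 nt on its strand.

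Much of the remaining depth came from a single plus-strand stretch, chr6:115224525-115226569. Its 8 clusters held 313 reads and 0 control reads, and 6 of them were among the 20 deepest of the block. From 5′ to 3′ the 8 clusters held 35, 12, 47, 60, 61, 50, 40 and 8 reads. The first 5 were 36 to 119 nt apart. An empty gap of 867 nt then separated the fifth from the sixth, and the last 3 were 155 and 60 nt apart. The contacts thus formed 2 groups rather than an even spread over the stretch.

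A pair of adjacent plus-strand clusters on chromosome 12 was of similar depth. There were 58 reads in chr12:113032810-113033004 and 47 in chr12:113032991-113033106, both with 0 control reads. The other deep plus-strand clusters were chr2:131763978-131764162, with 38 reads, and chr8:34526516-34526753, with 33, and they also held 0 control reads.

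On the minus strand the deepest cluster was chr4:136877764-136877968, with 43 reads at 35 positions. It had 0 control reads, as had the cluster of 20 reads upstream of it, chr4:136878084-136878222. Chromosome 16 carried neighbouring clusters of 25 reads, chr16:57391584-57391688, and of 38 reads, chr16:57391689-57391792. In the larger one 6 reads shared the crosslink position 57391793, and it held 4 control reads. The cluster chr2:5300319-5300419 held 31 reads at 14 positions and 2 control reads. A cluster of 26 reads, chrX:157239660-157239781, and clusters of 21 reads, chr5:122906036-122906140 and chrX:100379693-100379841, held 0 control reads. The remaining one among the 20 deepest, chr13:97960496-97960554, held 23 reads and 9 control reads.

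Together the 20 deepest clusters held 820 reads, 8.19% of the block, and 17 of them held 0 control reads and 3 held some. Over all clusters of the block, 23 of 3635 held control reads (0.633%). At an equal share of both blocks only 0.61 to 3.14 control reads would fall on each of the 20, so 0 control reads in a cluster says little. The 3 clusters with control reads held more than an equal share, with 4 against 1.16, 2 against 0.945 and 9 against 0.701. This excess was not tested. By crosslink positions in place of reads, 15 of the 20 were again among the deepest 20. The order depends on how the reads were collapsed. No 2 reads of this block shared a leftmost base and strand in either library, so on the plus strand, where the leftmost base is the 5′ end, every position held 1 read. On the minus strand a position could hold several reads of different length. The 29 plus-strand clusters of 10 reads or more held 819 reads at 819 positions, and the 37 on the minus strand held 644 reads at 486 positions.

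**Figure D2:**
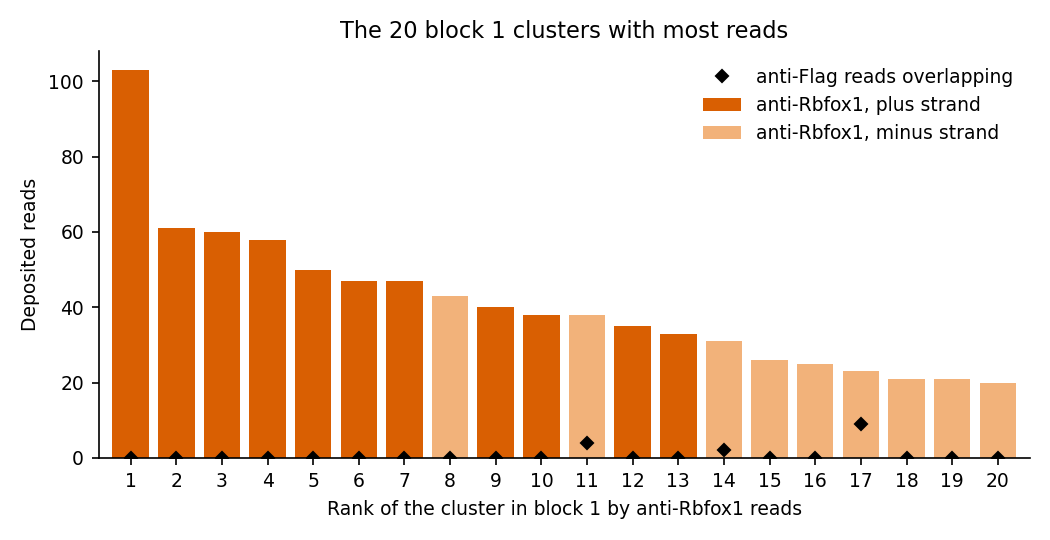
Deposited anti-Rbfox1 reads (bars, coloured by strand) and overlapping anti-Flag reads (diamonds) in the 20 deepest clusters of the first block, by rank. Anti-Rbfox1 reads range from 103 to 20, and 3 of the clusters hold control reads, with 4, 2 and 9.

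The next comparison asked whether these clusters were scattered. Of the 3635, 629 had another cluster of the block within 1000 nt on the same strand, counted between midpoints (17.3%, 16.1 to 18.6). Among the clusters of the other blocks 3498 of 6502 had one (53.8%, 52.6 to 55.0), a difference of -36.5 points (two-sided Fisher's exact p = 6.99e-301). The difference was -4.93 points without the fourth block (Fisher's exact p = 4.64e-05). It turned round against the ninth block alone, a block of small clusters, in which 6.94% had a neighbour (Fisher's exact p = 3.57e-13). In the third block 17.0% had one (13.4 to 21.0; Fisher's exact p = 0.944). By this measure a neighbour was less frequent in the first block than in the fourth and more frequent than in the ninth. No difference from the third was seen. Neighbours were counted within each set, so the share also depends on how many clusters a set holds. The other blocks were pooled, with or without the fourth, so a neighbour there could come from a different block. In the first block it could not. The first block held 3635, the fourth 4982, the ninth 663 and the third 400. With fewer clusters, the third block had a median nearest distance of 7991 nt, against 23898 nt in the first. Spacing was not compared at equal numbers of clusters.

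Within the block the deeper clusters were the less scattered ones. A neighbour within 1000 nt was present for 10.1% of clusters of 2 reads (9.01 to 11.3), for 30.5% of those with 3 or 4 reads (26.9 to 34.3), for 63.6% of those with 5 to 9 (55.5 to 71.2) and for 92.4% of those with 10 or more (83.2 to 97.5). The median distance to the nearest cluster of the block fell from 34620 nt at 2 reads to 107 nt at 10 reads or more. The word scattered thus fits the clusters of few reads, and the deep minority lay in close groups. Reads more than 20 nt apart at 1 site make separate clusters, so part of this relation is set by how clusters are cut.

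At larger distances the gap between the first and the fourth block narrowed. The share with a same-strand neighbour rose from 17.3% within 1 kb to 30.2% within 5 kb, 38.6% within 10 kb and 59.4% within 50 kb. In the fourth block it was 60.1% within 1 kb, 68.5% within 5 kb and 71.2% within 50 kb. Most neighbours in the fourth block were thus found within 5 kb, whereas those of the first block kept appearing well beyond that distance. The third block rose further, to 73.2% within 50 kb (68.6 to 77.5; Fisher's exact p = 4.36e-08 against the first block). On the opposite strand 0 of 3635 clusters had a neighbour of the block within 5 kb, which allows up to 0.0825%, and 48 had one within 50 kb (1.32%). The control block had 2 of 130 clusters with a neighbour at every distance from 0.1 to 100 kb, and its 130 clusters are too few for a comparison of spacing.

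**Figure D3:**
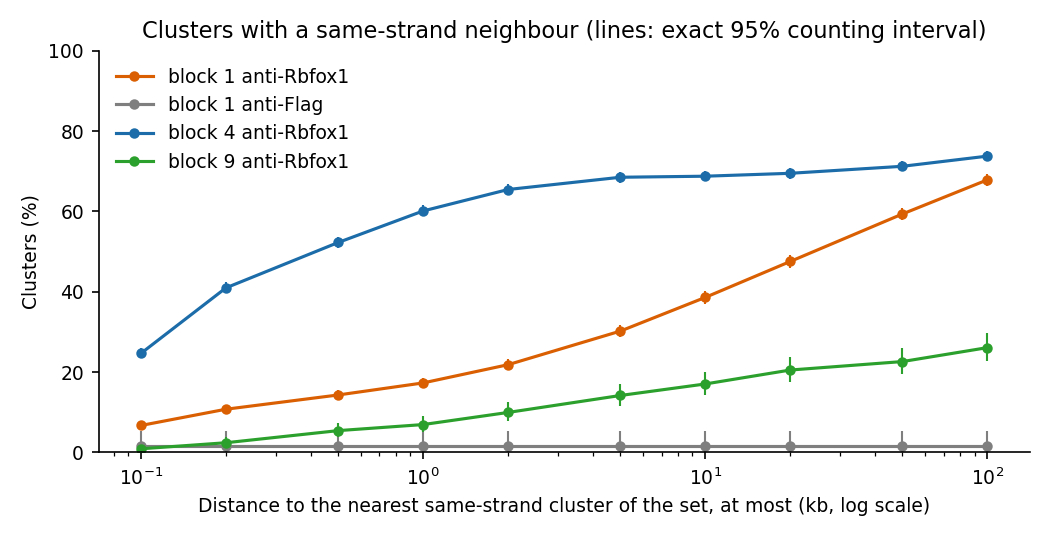
Share of clusters (%, vertical axis) with another cluster of the same set and strand within the distance on the horizontal axis (kb, log scale), with exact 95% counting intervals. The first block rises from 6.71% at 0.1 kb to 67.9% at 100 kb, while the fourth block is at 60.1% by 1 kb and 73.8% at 100 kb.

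Joined over gaps of up to 1000 nt on the same strand, the clusters formed 3203 stretches, of which 2992 were single clusters. The 211 stretches of at least 2 clusters held 643 clusters and 31.7% of the reads. The stretch with most clusters, chr15:79654393-79658390 on the minus strand, had 24 clusters, of which 5 held 2 reads and the deepest 17. In chr5:122905949-122907023, also on the minus strand, 120 reads fell into 11 clusters, with a mean of 97.7 nt of stretch per cluster. The third, chr15:72636037-72636908 on the minus strand, packed 10 clusters with 44 reads into 872 nt. It tied with chr9:109905452-109908047 on the plus strand, which also had 10 clusters but 39 reads. None of these stretches contained a control read or a cluster of the fourth or ninth block.

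Over gaps of up to 50 kb the same clusters formed 2076 groups, called domains here, a distance chosen after the spacing was seen. Of these 601 held at least 2 clusters, with 59.4% of all clusters and 66.0% of the reads, and 30 held 10 or more. The domain with most clusters spanned 261 kb of the plus strand (chr9:34301235-34562377). It held 32 clusters, 26 of them of 2 reads and none above 4, and 2 control reads. Another plus-strand domain of chromosome 9 spanned 109 kb (chr9:45261789-45370831), with 30 clusters and 70 reads and again none above 4 reads. The minus strand of chromosome 1 had 23 clusters spread over 135 kb (chr1:170222095-170356901) and 20 over 229 kb (chr1:68922760-69152192). Domains of a compact kind also occurred, such as 19 clusters with 144 reads within 6657 nt of the minus strand (chrX:157239504-157246160). The block thus held both long, thin series of clusters of a few reads and short, dense groups.

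**Figure D4:**
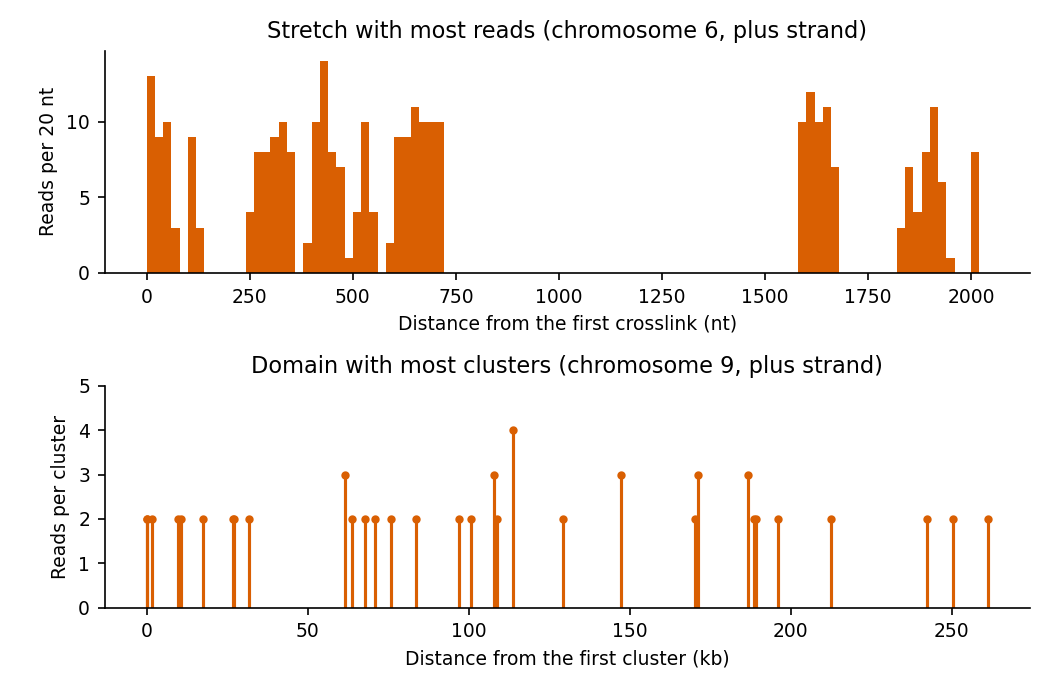
Above, anti-Rbfox1 reads per 20 nt along the chromosome 6 stretch of 313 reads, by distance from its first crosslink (nt). Below, reads per cluster along the chromosome 9 domain of 32 clusters, by distance from its first cluster (kb). Reads form 2 dense groups with an empty gap of 867 nt in the first, and clusters of 2 to 4 reads spread over 261 kb in the second.

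A minority of first-block clusters lay within 50 kb of a fourth-block cluster on the same strand, and the blocks rarely mixed. Within 1 kb of a fourth-block cluster on the same strand lay 24 first-block clusters (0.660%), within 10 kb 249 (6.85%) and within 50 kb 732 (20.1%). On the opposite strand the counts were 0, 17 and 115 (3.16% within 50 kb). Of the 99 domains with at least 5 clusters, 0 contained a fourth-block cluster, and of the 601 with at least 2 clusters 10 did.

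Where a fourth-block cluster was near, it mostly lay on the downstream side. For 661 of the 732 clusters with a fourth-block cluster within 50 kb on their strand, the nearest one was downstream in the direction of the strand, and for 71 it was upstream (90.3% downstream, 87.9 to 92.3). The share was 95.2% within 10 kb (91.7 to 97.5), with 237 against 12, and 98.5% within 5 kb (94.8 to 99.8), with 135 against 2. It was 90.1% on the plus strand and 90.6% on the minus strand. With each domain counted once, 397 of 448 had the nearest fourth-block cluster downstream (88.6%, 85.3 to 91.4). The median distance to the downstream cluster was 15.2 kb. Among the 115 clusters near a fourth-block cluster on the opposite strand, 92 also had it downstream of their own direction (80.0%, 71.5 to 86.9).

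The ninth block lay differently. Of 278 first-block clusters within 50 kb of a ninth-block cluster on the same strand, 158 had it downstream and 120 upstream (56.8% downstream, 50.8 to 62.7). By domains 88 of 131 had it downstream (67.2%, 58.4 to 75.1), and among clusters of at least 3 reads 39 of 95 did (41.1%, 31.1 to 51.6). Of the 601 domains with at least 2 clusters, 14 contained a ninth-block cluster. Ninth-block clusters themselves had the fourth block downstream in 401 of 415 cases (96.6%, 94.4 to 98.1). Where a fourth-block cluster lay within 50 kb, it thus mostly came after the clusters of the first and ninth blocks. The side of the ninth block relative to the first depended on what was counted. The third block had 0 clusters within 50 kb of a first-block cluster on the same strand, and 6 first-block clusters had one on the opposite strand. These relations were looked for after the spacing had been seen. Whether they follow the exons, introns and ends of transcripts was not tested, since no annotation of this build was used.

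**Figure D5:**
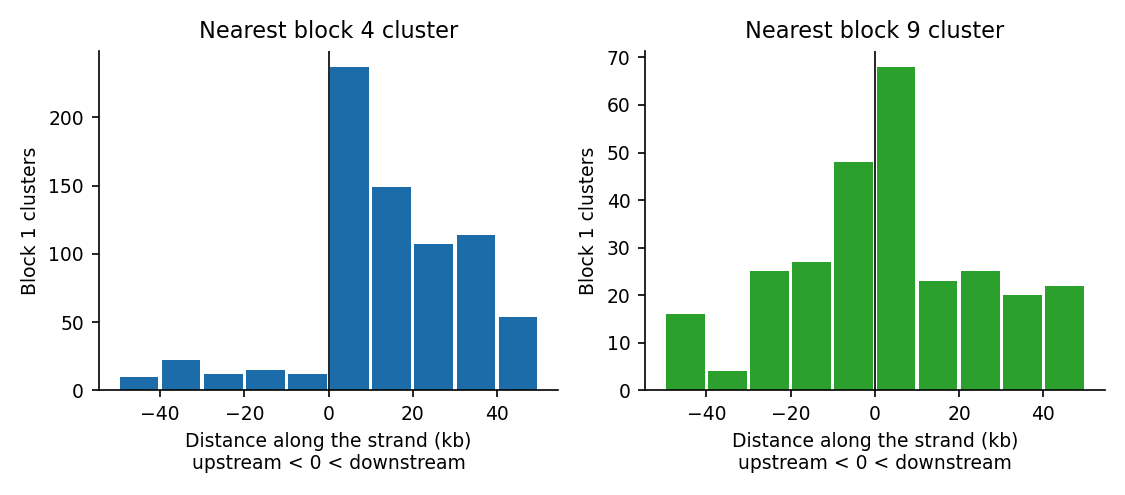
Number of first-block clusters (vertical axis) by the distance along the strand to the nearest same-strand cluster of the fourth block (left) or ninth block (right), in bins of 10 kb, with downstream positive. For the fourth block 237 lie in the first bin downstream and 12 in the first bin upstream, against 68 and 48 for the ninth block.

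The strands were unequal. The plus strand held 2390 of 3635 clusters (65.7%, 64.2 to 67.3), against 51.8% in the other blocks (50.6 to 53.0), a difference of 14.0 points (two-sided Fisher's exact p = 1.77e-42). Without the fourth block the difference was 7.07 points (65.7% against 58.7%, Fisher's exact p = 1.87e-06). In the third block the plus share was higher than in the first, at 74.5% (69.9 to 78.7; Fisher's exact p = 0.000421 against the first block). In the control block the plus strand held 99 of 130 (76.2%, 67.9 to 83.2), and the anti-Rbfox1 share was -10.4 points from it (Fisher's exact p = 0.0140). After 1 read was kept per leftmost and also per rightmost base in every block, the plus shares were 48.9% in the first block, 50.8% in the other blocks (Fisher's exact p = 0.112) and 45.6% in the control block (p = 0.688, exact). Both differences then changed direction and neither passed the test. In the first blocks this collapse removes plus-strand clusters whose reads all end at the same base, and no minus-strand cluster. It can therefore only lower the plus share of those blocks, and is not a separate check from leaving such clusters out, as below.

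Many plus-strand clusters held reads that all ended at the same base. On the plus strand 1198 of 2390 clusters (50.1%) had a single 3′ end, and without them the plus strand held 1192 of 2437 clusters (48.9%, 46.9 to 50.9). In the control block 73 of 99 plus-strand clusters had a single 3′ end, and 26 of 57 clusters (45.6%, 32.4 to 59.3) were on the plus strand without them. On the minus strand such clusters cannot occur, because reads that share a 3′ end there share their leftmost base. Leaving them out can therefore only lower the plus share, and no matching class was removed from the minus strand.

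Among plus-strand clusters of 2 reads, 988 of 1882 had a single 3′ end (52.5%, 50.2 to 54.8). The share was 24.1% in the other blocks (21.6 to 26.6; two-sided Fisher's exact p = 2.15e-56), 17.4% in the fourth block (14.6 to 20.5), 41.7% in the third block (35.3 to 48.4; Fisher's exact p = 0.00210) and 75.6% in the control block (64.9 to 84.4; Fisher's exact p = 3.61e-05 against the anti-Rbfox1 block). These tests were added after the strands had been seen. In 763 of the pairs the crosslinks also lay 1 nt apart, that is 40.5% of plus-strand pairs, against 59.8% in the control block and 9.77% in the fourth. The crosslinks of minus-strand pairs lay a median of 7 nt apart, those of plus-strand pairs 2 nt and those of control pairs 1 nt on both strands. Pairs with a single 3′ end cannot occur on the minus strand here, and they made up 763 of the 874 plus-strand pairs 1 nt apart. The medians of the 2 strands are therefore not alike in what they cover. Single 3′ ends occurred in shallow clusters, in 44.9% of plus-strand clusters of 3 reads, 55.7% of those of 4, 22.1% of those of 5 to 9 and 0 of 29 with 10 reads or more.

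Clusters with a single 3′ end were the more isolated ones. Of the 1198, 4.51% had a neighbour within 1000 nt (3.40 to 5.84), against 24.2% of the 1192 plus-strand clusters with several 3′ ends (21.8 to 26.8) and 23.0% on the minus strand. Within 50 kb the shares were 48.9% (46.0 to 51.8), 70.1% (67.4 to 72.7) and 59.1%. A fourth-block cluster lay within 50 kb on the same strand for 16.2% (14.2 to 18.4), 21.8% (19.5 to 24.3) and 22.3%, and for 170 of the 194 in the first class it was downstream. Clusters with several 3′ ends reach greater depth, which goes with more neighbours, and the part of depth in these shares was not tested.

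The last comparison asked how far the control reads fell on these clusters. Of the 305 control reads 60 overlapped an anti-Rbfox1 read of the block by at least 1 base on the same strand (19.7%, 15.4 to 24.6), 0 overlapped an anti-Rbfox1 read of another block, and 0 of the 264 control reads of other blocks overlapped this one. Whether these 0 counts follow from how lines were sorted into blocks was not tested. The 60 reads belonged to 21 of 130 control clusters. By strand, 10 of 99 plus-strand control clusters overlapped (10.1%, 4.95 to 17.8) and 11 of 31 on the minus strand (35.5%, 19.2 to 54.6). On the plus strand 4 of 73 control clusters with a single 3′ end overlapped (5.48%, 1.51 to 13.4) and 6 of 26 with several (23.1%, 8.97 to 43.6). The difference by strand or by 3′ ends was not tested.

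From the other side, 23 of 3635 anti-Rbfox1 clusters held control reads (0.633%, 0.402 to 0.948). They included 11 of the 220 clusters with 5 reads or more and 6 of the 2802 with 2 reads. Besides those among the deepest 20 already given, the clusters of 5 reads or more with control reads were these. The second chromosome 13 cluster, chr13:97960530-97960588 on the minus strand, held 19 reads at 6 positions and overlapped the same 9 control reads as its neighbour. Overlapping plus-strand clusters, chr12:79451883-79451975 and chr12:79451856-79451913, had 16 and 5 reads, with 2 and 1 control reads. Also on the plus strand, chr3:37380447-37380523 had 11 reads and chr2:103443896-103443921 had 10, each with 2 control reads. Among minus-strand clusters, chr11:33654994-33655063 had 9 reads and 2 control reads. The minus-strand cluster chr2:156831338-156831362 had 6 reads at 2 positions and 3 control reads, and chr9:55611126-55611153 had 5 reads and 2 control reads.

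The 5 deepest control clusters differed in what they shared with anti-Rbfox1. The 9 control reads of chr13:97960507-97960585 (minus strand) met 42 anti-Rbfox1 reads in its pair of clusters. These 9 reads were 2.95% of the control block. The anti-Rbfox1 cluster of 23 reads in this pair held 0.230% of its block. The 8 control reads of chr16:77069840-77069891 (plus strand) all ended at a single base and met 0 anti-Rbfox1 reads. In chr15:59481926-59481948 (plus strand) there were 6 control and 2 anti-Rbfox1 reads. The plus-strand clusters of 5 control reads, chr1:183346200-183346231 and chr6:53384002-53384036, met 0.

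The spread over chromosomes was compared with the other blocks as a last description. By clusters 7 of 20 chromosomes (35.0%) differed at an adjusted p under 0.05 (Fisher's exact tests, Benjamini-Hochberg adjustment), 3 with a higher and 4 with a lower share in the first block. Chromosome 11 held 5.50% of the first-block clusters (4.78 to 6.29) and 8.97% of the others (8.28 to 9.69; Fisher's exact test, adjusted p = 3.42e-09). Chromosome 9, which carries both of the domains with most clusters, held 7.13% and 5.28% (Fisher's exact test, adjusted p = 0.00128). With domains of 50 kb counted in place of clusters, 0 of 20 chromosomes passed the adjusted and 2 an unadjusted p of 0.05, and chromosome 11 held 6.07% and 8.01% of the domains (Fisher's exact test, adjusted p = 0.132). The domains are fewer, and not every difference shrank. Chromosome X went from -1.03 points by clusters to -1.39 by domains (Fisher's exact test, adjusted p = 0.132) and chromosome 6 from 1.70 to 1.21 (adjusted p = 0.398, Fisher's exact test).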

How the data were processed

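The deposited files give for each aligned read its outer bases, its strand and 1 more position, which lay 1 nt upstream of the 5′ end of every read in the first blocks and was used as the crosslink. Per the submitters' processing notes the authors used Bowtie and the mm9 build. Of versions, filters and the removal of PCR copies nothing was given in the sources used here. Reads before collapse were not used here.

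Blocks were read from the line order, and clusters were joined within a block and strand over gaps of up to 20 nt. Neighbours were counted between cluster midpoints, and stretches and domains joined outer bases over 1000 nt and 50 kb. Shares have exact Clopper-Pearson 95% intervals, where 0 was seen 3 counts are taken as the limit, and pairs of shares were tested by Fisher's exact test (two-sided). Steps were tested on simulated data. Python 3.11.15, numpy 2.4.6, pandas 2.3.3, scipy 1.17.1 and matplotlib 3.10.9 were used.

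The members, the settings and the tests were chosen with earlier results of these data known. The clusters named are the 20 with most anti-Rbfox1 reads, the 5 control clusters with most reads, the anti-Rbfox1 clusters of 5 or more reads that overlap control reads and the 3 stretches with most clusters, with a tie for the third broken by reads. Domains and any other items were picked with their values in view. The sequence motif and the transcript regions, planned for a genome and annotation of mm9, were not analysed here. Only an annotation of GRCm38 was given, and reads on 6 of 21 chromosomes ended past the last feature it lists.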

Additional observations from a re-analysis of the deposited data

Results flagged for a closer look

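Read names carry the tile of the flow cell, which no comparison used, and tiles were spread differently in the 2 first blocks. The first 16 tiles held 75.4% of the anti-Rbfox1 reads of the block (74.5 to 76.2), 82.3% of those of the other blocks (82.0 to 82.7) and 49.2% of the control reads of the block (43.4 to 54.9). Within the block the share was 77.5% in clusters of 2 reads and 79.8% in clusters of 10 or more. The anti-Rbfox1 value stands above that of the control, and no explanation was tested.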

How the results depend on the processing

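Of 43 alternative settings, 17 planned and 26 chosen after the data were seen, 31 left a call on its side of the threshold or a value within its interval. With 1 read kept per leftmost and per rightmost base, the difference in plus-strand share turned to -1.93 points against the other blocks and to 3.26 points against the control. The difference from the control, -10.4 points, was -9.85 and no longer past the threshold among clusters of at least 3 reads (Fisher's exact p = 0.399) and -15.8 without overlapping clusters. A joining distance of 10 nt took the difference in clusters of 2 reads from the control from -4.45 to -23.1 points, past the threshold, where single reads then count as clusters. Against the third block alone the differences were 0.834 points for clusters of 2 reads, no longer past the threshold, 0.304 for a same-strand neighbour and -8.75 for the plus strand, the last 2 turned in direction. The share with a same-strand neighbour was 10.4 points above that of the ninth block. The downstream share, 90.3%, was 95.2% within 10 kb, 84.8% within 100 kb and 93.4% among clusters of at least 3 reads. The chromosomes called fell from 7 to 0 with domains in place of clusters. The cause was not tested, apart from the distances, the joined domains and the collapse, which change the values by construction. The motif and transcript region alternatives were not run. No paired analysis was possible because there was 1 library per antibody. The 305 control reads of the block limit every comparison with it.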
